A study of Homo sapiens with 6 samples.

Results

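Transcript levels of 5 CEACAM genes (CEACAM1, CEACAM5, CEACAM6, CEACAM7 and CEACAM19) were described in HCT116 cells, an established human colorectal cancer line, out of 20474 annotated genes measured. The genes were chosen by name, with the siPOU2F1 and sicontrol values of these same libraries already known, so their differences between the groups are given as a description with no test. One group of 3 libraries (sicontrol) came from cells that received a non-targeting siRNA and are labelled wild type, and the other group of 3 (siPOU2F1) from cells that received an siRNA against POU2F1 and are labelled as a POU2F1 knockdown. Both were harvested 48 h after transfection, and polyA RNA was sequenced in a study on tRNA-derived fragments. POU2F1 encodes the octamer-binding transcription factor OCT1. All libraries come from 1 cell line, and the labels do not say whether replicates were separate cultures. Any p-value here therefore measures the spread from library to library alone, and that spread may be technical.

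CEACAM proteins are cell surface glycoproteins built from immunoglobulin-like domains, and many of them bind each other or themselves on neighbouring cells. CEACAM1 spans the membrane and exists in forms with a long or a short cytoplasmic tail, of which the long one carries inhibitory tyrosine motifs. CEACAM5 (carcinoembryonic antigen, the serum tumour marker of colorectal cancer), CEACAM6 and CEACAM7 are held in the membrane by a glycosylphosphatidylinositol (GPI) anchor and are known from the surface of differentiated colon epithelium. CEACAM19 is a more distant and less studied relative with a transmembrane segment. The pregnancy-specific glycoproteins (PSG genes), secreted mainly by the placenta, belong to the same family.

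CEACAM1, CEACAM5, CEACAM6 and CEACAM7 have start regions that are visibly related, and the stretches nearest the start are shown for comparison. Any part of these sequences in the levels of the 4 genes was not tested. RefSeq (GRCh38.p14) gave a start region for these 4 of the 5 genes. Each line runs 5′ to 3′ on the gene's own strand, from 120 bases before the transcription start to 50 bases after it. The capitals mark CACGTG or the 6 bases aligned to it. CACGTG is a form of the E-box that upstream stimulatory factors (USF1 and USF2) are known to bind.
CEACAM5: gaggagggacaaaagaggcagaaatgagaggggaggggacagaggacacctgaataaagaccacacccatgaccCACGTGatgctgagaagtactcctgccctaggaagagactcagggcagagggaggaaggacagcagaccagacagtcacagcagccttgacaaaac
CEACAM6: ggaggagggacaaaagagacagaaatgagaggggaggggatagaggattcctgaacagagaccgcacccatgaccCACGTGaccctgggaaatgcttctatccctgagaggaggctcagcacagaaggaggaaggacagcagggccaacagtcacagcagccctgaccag
CEACAM7: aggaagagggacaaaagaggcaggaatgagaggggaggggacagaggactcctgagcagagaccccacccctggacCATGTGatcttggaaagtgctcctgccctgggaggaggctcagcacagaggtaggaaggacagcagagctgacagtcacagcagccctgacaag
CEACAM1: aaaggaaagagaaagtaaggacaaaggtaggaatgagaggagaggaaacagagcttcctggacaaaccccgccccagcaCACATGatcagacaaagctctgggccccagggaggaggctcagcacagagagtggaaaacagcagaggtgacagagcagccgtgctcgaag

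These windows lie at chr19:41708506-41708675 (plus strand) for CEACAM5, chr19:41755410-41755579 (plus) for CEACAM6, chr19:41688221-41688390 (minus) for CEACAM7 and chr19:42528432-42528601 (minus) for CEACAM1. Over the whole 300-base region in the RefSeq table, CEACAM7 shared 84.7% of aligned bases with CEACAM5, CEACAM6 shared 78.8% and CEACAM1 shared 70.7%. The exact letters CACGTG were present in CEACAM5 and CEACAM6. CEACAM7 had the substitution C3T in the aligned 6 bases and CEACAM1 had G4A, with the CEACAM5 base first and positions counted from the first base of CACGTG. The resulting CATGTG and CACATG still fit the general E-box form CANNTG, where N is any base. Each of them is the other read on the opposite strand. The core CACGTG, which reads the same on both strands, was present in 7.26% of all 35116 start regions in the table. The octamer ATGCAAAT, the site POU2F1 is known for, was searched on both strands; it was in 0 of the 4 regions and in 1.77% of all regions. A match of letters is not a measured binding site, and its absence says only that the letters are not in these 300 bases. The GENCODE spans of CEACAM1, CEACAM6 and CEACAM7, given below, begin upstream of these regions. Sequence at those other starts was not searched.

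All 5 genes lie on chromosome 19 (GRCh38, GENCODE). CEACAM7 (ENSG00000007306; 41673307 to 41706976, minus strand), CEACAM5 (ENSG00000105388; 41708585 to 41729798, plus) and CEACAM6 (ENSG00000086548; 41750977 to 41772208, plus) are neighbours. CEACAM1 (ENSG00000079385) lies further along at 42507304 to 42561234 on the minus strand, and CEACAM19 (ENSG00000186567) at 44662278 to 44684359 on the plus strand.

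Levels are FPKM, fragments scaled to transcript length and to the mapped fragments of the library, so they can be compared between genes. Wherever 3 values are given for a group they belong to its replicates 1, 2 and 3, in that order. Among the 5, CEACAM1 was the highest in every library and CEACAM19 the next, whereas CEACAM5, CEACAM6 and CEACAM7 were close to 0. The lowest CEACAM1 value (11.7 FPKM) lay above the highest CEACAM19 value (3.43 FPKM), and the lowest CEACAM19 value (1.39 FPKM) lay above every value of the other 3 genes. CEACAM1 alone made up between 77.7% and 95.1% of the summed FPKM of the 5 genes. Its mean over the 6 libraries lay above that of 67.8% of the 11831 genes that averaged 1 FPKM or more, the level required for testing. The mean of CEACAM19 lay above that of 11% of them.

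CEACAM1 stood at 11.7, 12.2 and 18.2 FPKM under sicontrol and at 28.97, 26.6 and 19.8 FPKM under siPOU2F1. All 3 siPOU2F1 libraries lay above all 3 sicontrol libraries, but siPOU2F1 replicate 3 was close to sicontrol replicate 3. The means of 14.0 ± 3.64 and 25.1 ± 4.77 FPKM (SD, n = 3 each) had a ratio of 1.79. As log2(FPKM + 0.5), a scale on which differences of low genes come out too small, the difference (siPOU2F1 minus sicontrol) was 0.83 with an SE of 0.21, and 149 tested genes had a larger one. The siPOU2F1 replicates 1 to 3 lay 1.05, 0.93 and 0.51 above the sicontrol mean on this scale. Values are per gene, so the long-tailed and short-tailed forms of CEACAM1 were not separated. In bulk RNA, fewer cells of a type and less RNA per cell cannot be told apart.

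CEACAM19 stood at 2.12, 3.43 and 1.96 FPKM under sicontrol and at 1.39, 1.63 and 3.30 FPKM under siPOU2F1. The groups overlapped, and the 2 high libraries, sicontrol replicate 2 and siPOU2F1 replicate 3, came from different groups. The means were 2.51 ± 0.806 and 2.11 ± 1.04 FPKM (SD, n = 3 each), and the log2 difference was -0.24 with an SE of 0.32. Relative to the sicontrol mean, siPOU2F1 replicates 1 and 2 lay at -0.64 and -0.46 and replicate 3 at 0.37, so the libraries of that group did not share a direction.

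CEACAM5 was listed at 0.0442, 0 and 0 FPKM under sicontrol and at 0.0393, 0.0831 and 0 FPKM under siPOU2F1. CEACAM6 was listed at 0, 0.0650 and 0.0571 FPKM under sicontrol and at 0.0478, 0.0809 and 0 FPKM under siPOU2F1. CEACAM7 was listed at 0 in 5 libraries and at 0.0118 FPKM in siPOU2F1 replicate 3. The GPI-anchored genes overlapped each other and showed no separation between the siRNAs at these levels. No fold change is given for them, because the files hold no counts and a value listed at 0 cannot be given a detection limit.

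**Figure D1:**
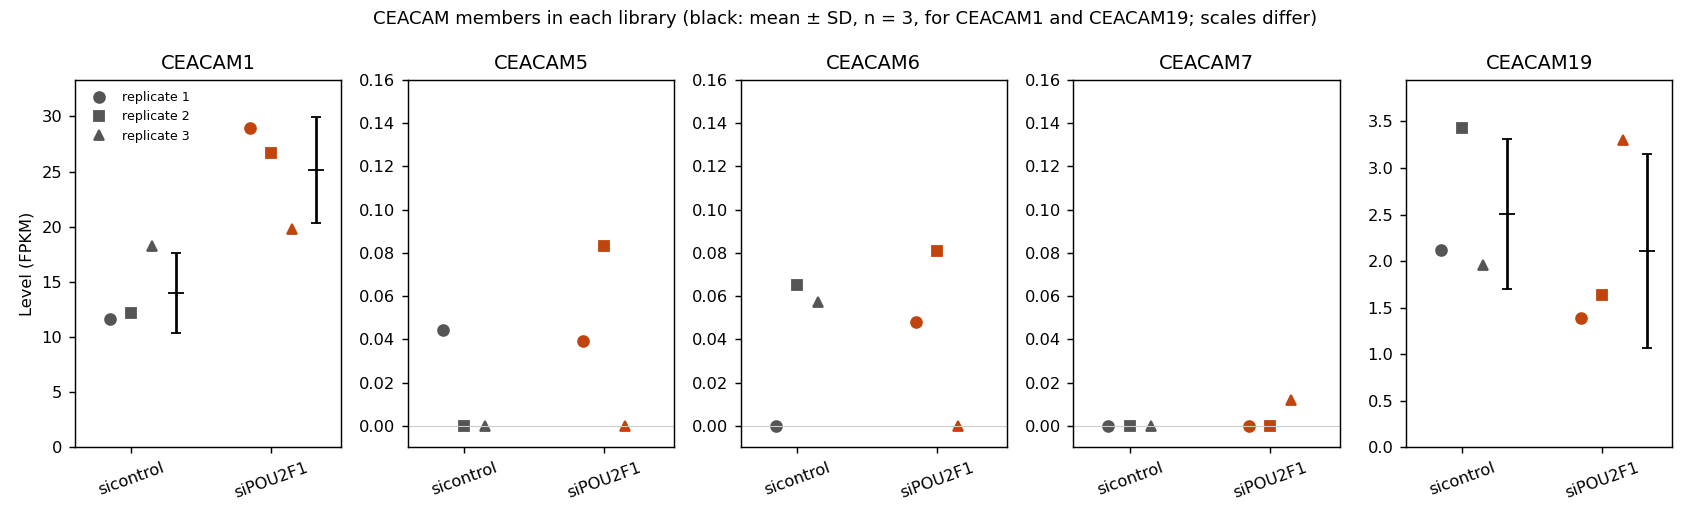
FPKM (vertical axis) of each of the 5 CEACAM genes in the 3 sicontrol (grey) and 3 siPOU2F1 (orange) libraries, with symbols for the replicate number and a vertical scale of its own for CEACAM1 and CEACAM19; black marks give the mean ± SD (n = 3) where no library is at 0. CEACAM1 is higher in all 3 siPOU2F1 libraries (19.8 to 28.97 FPKM) than in any sicontrol library (11.7 to 18.2 FPKM), CEACAM19 overlaps, and CEACAM5, CEACAM6 and CEACAM7 stay below 0.1 FPKM.

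Of the 5 genes, 2 passed the level filter (CEACAM1 and CEACAM19). For the genes around them, limma with Benjamini-Hochberg adjustment called, at an adjusted p under 0.05, 1.24% of all tested genes (0.397% higher and 0.845% lower in siPOU2F1). At an unadjusted p under 0.05, 8.22% of tested genes were higher and 9.90% lower. Log2 fold changes above 0 were found in 5738 of the 11831 tested genes, and the median was -0.01. Groups that do not overlap, as in CEACAM1, were found in 11.3% of tested genes with siPOU2F1 higher and in 12.0% with siPOU2F1 lower. Without siPOU2F1 replicate 3 the log2 difference of CEACAM1 was 0.99 with an SE of 0.20, and that of CEACAM19 was -0.55 with an SE of 0.23. This smaller fit called 25.0% of tested genes, 9.29% higher and 15.7% lower. Since the genes were chosen with these libraries known, nothing is read from these shares for the 5 genes. The gene lists below were also chosen with earlier results of these data known. Their counts are set beside these shares as a description only.

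The libraries themselves bear on these values. POU2F1 stood at 4.16, 3.60 and 4.26 FPKM under sicontrol and at 1.87, 1.69 and 1.73 FPKM under siPOU2F1, so its mean was 44.0% of control. It fell by 0.99 on the log2 scale (SE 0.14, limma adjusted p = 0.0333; exact two-sided permutation p = 0.1, the smallest that 3 against 3 allow). With any library but siPOU2F1 replicate 3 left out, the limma adjusted p of POU2F1 was 0.114 to 0.220, and with no filter on low values it was 0.0650. Across tested genes siPOU2F1 replicate 3 correlated with sicontrol replicates 1, 2 and 3 at r = 0.969, 0.977 and 0.966. With siPOU2F1 replicates 1 and 2 it correlated at 0.946 and 0.948, so it was closer to each sicontrol library than to its own group. This is a description with no test, since genes are not independent replicates. CEACAM19 was high in siPOU2F1 replicate 3 and sicontrol replicate 2, and the part of these 2 libraries in its values was not tested. Between 11670 and 11853 genes per library reached 1 FPKM, and the absolute depth is unknown. The labelled cell type fitted its markers: EPCAM ran from 204 to 224 FPKM, KRT18 from 1271 to 2185 FPKM and KRT19 from 486 to 756 FPKM. CDH17, another marker of intestinal epithelium, was at most 0.121 FPKM. Of 10 leukocyte markers 4 were at 0 in every library (PTPRC, CSF3R, FCGR3B and S100A8), and the list summed to 0.724 to 1.07 FPKM under sicontrol and 0.478 to 0.904 FPKM under siPOU2F1. CEACAM3, CEACAM4 and CEACAM8, family members known from granulocytes and other leukocytes, were likewise listed at 0 in all 6 libraries. Of 6 fibroblast markers, DCN and COL3A1 were at 0 in every library and COL1A1 was the highest at 1.55 to 3.58 FPKM; the list summed to 2.17 to 2.69 FPKM under sicontrol and 1.88 to 3.69 FPKM under siPOU2F1. The 5 endothelial markers summed to 0.884 to 1.08 FPKM under sicontrol and 0.597 to 0.907 FPKM under siPOU2F1, with VWF the highest.

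The likeness of the family limits how reads can be assigned. In the longest coding sequence that GENCODE holds for each gene, CEACAM5 and CEACAM6 shared 90.4% of aligned bases, CEACAM1 and CEACAM6 89.2%, CEACAM5 and CEACAM7 84.4%, CEACAM1 and CEACAM7 83.6%, CEACAM6 and CEACAM7 82.8% and CEACAM1 and CEACAM5 80.6%. CEACAM19 shared 59.0% to 74.1% of aligned bases with the other 4 in the same alignments, and no run longer than 11 coding bases with any of them. Gaps are left out of these shares. For CEACAM19 the share rose with the coding length of the other gene, from CEACAM7 (798 bases) to CEACAM5 (2109 bases). Its shares therefore cannot be read as likeness beside those of the other pairs. The longest identical coding runs are shown because a read falling inside one fits both genes equally well.
CEACAM1 and CEACAM6, 71 bases: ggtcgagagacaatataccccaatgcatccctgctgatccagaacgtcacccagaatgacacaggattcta
CEACAM1 and CEACAM5, 68 bases: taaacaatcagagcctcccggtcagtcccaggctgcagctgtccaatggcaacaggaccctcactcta
CEACAM5 and CEACAM6, 65 bases: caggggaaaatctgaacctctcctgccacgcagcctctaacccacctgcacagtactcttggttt

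Such runs were a small part of each transcript. Of all 50-base windows in the transcript, 4.15% for CEACAM1, 3.26% for CEACAM5 and 4.60% for CEACAM6 occurred unchanged in another CEACAM or PSG gene, and none did for CEACAM7 and CEACAM19. The gene sharing most windows with CEACAM1 was CEACAM3, which was listed at 0 in every library. The values of CEACAM5 and CEACAM6, all under 0.1 FPKM beside a CEACAM1 of 11.7 FPKM or more, are therefore uncertain. How the authors treated reads that fit several genes is not given in the sources used here.

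Overlapping annotation touched 4 of the 5 genes. CEACAM1 shared 3.35% of its exonic bases with LIPE-AS1 on the opposite strand, and whether strand was used in the counting is not given in the sources used here. CEACAM5 shared 16.2% and CEACAM6 5.64% with a protein-coding gene annotated across both on the same strand (ENSG00000267881), which was listed at 0 in all libraries. CEACAM19 shared 2.33% with PVR, an immunoglobulin-like receptor gene upstream of it on the same strand. PVR stood at 55.3, 70.5 and 45.7 FPKM under sicontrol and at 35.9, 35.0 and 55.3 FPKM under siPOU2F1, far above CEACAM19. Reads in the shared bases cannot be told apart without the counting rule, so the level of CEACAM19 is uncertain. The pair had r = 0.905 over the 6 libraries, a description only: 1165 tested genes reached 0.9 with CEACAM19.

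The 17 other CEACAM and PSG genes on chromosome 19 gave 3 tested genes, CEACAM21, PSG1 and PSG11, of which limma called 0 (2 of 3 were lower at an unadjusted p under 0.05, against 9.90% of all tested genes). CEACAM21 stood at 6.33, 5.94 and 6.63 FPKM under sicontrol and at 3.68, 4.14 and 4.56 FPKM under siPOU2F1. Every siPOU2F1 library lay below every sicontrol library, the opposite side from CEACAM1. The fitted log2 difference of CEACAM21 was -0.56 (SE 0.13, limma adjusted p = 0.107). PSG1 stood at 7.34, 5.53 and 9.50 FPKM under sicontrol and at 3.80, 3.07 and 3.32 FPKM under siPOU2F1, again without overlap, and differed by -1.003 on the log2 scale (SE 0.205, limma adjusted p = 0.0741). PSG11 overlapped between the groups (means 2.61 ± 0.70 and 1.86 ± 0.57 FPKM, SD, n = 3 each; log2 fold change -0.40, limma adjusted p = 0.41). Without siPOU2F1 replicate 3, CEACAM21 and PSG1 passed (limma adjusted p = 0.0188 and 0.0255) and PSG11 did not (0.0928). This smaller fit called 15.7% of all tested genes lower. With any other library left out, CEACAM21 was at 0.213 to 0.386 and PSG1 at 0.120 to 0.301.

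CEACAM1 was 1.84, 2.05 and 2.75 times as high as CEACAM21 under sicontrol and 7.87, 6.44 and 4.34 times as high under siPOU2F1. These ratios could not overlap, because the groups of each gene did not overlap and the 2 genes lay on opposite sides. They add nothing to the values of each gene. Both genes entered with these libraries known, and the ratio carries no test. Below the tested level, the sicontrol and siPOU2F1 means were 0.941 and 0.491 FPKM for PSG8, 0.764 and 0.385 FPKM for PSG5, 0.492 and 0.199 FPKM for PSG2, 0.350 and 0.231 FPKM for PSG9 and 0.117 and 0.114 FPKM for PSG6. Of these, the groups of PSG2 did not overlap (0.404 to 0.633 FPKM under sicontrol and 0.135 to 0.301 FPKM under siPOU2F1), and the others did. The remaining 9 genes had means under 0.1 FPKM over the 6 libraries, and 4 of them (CEACAM3, CEACAM4, CEACAM8 and CEACAM18) were listed at 0 throughout.

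**Figure D2:**
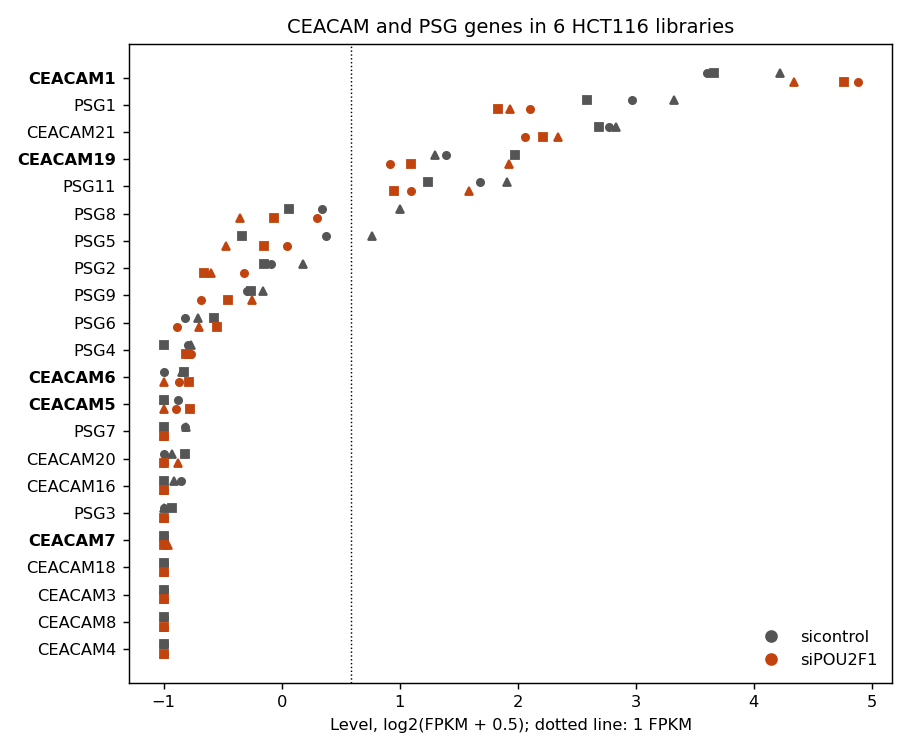
Levels of the 22 CEACAM and PSG genes as log2(FPKM + 0.5) (horizontal axis), ordered by mean, in each sicontrol (grey) and siPOU2F1 (orange) library; symbols stand for replicates 1 (circle), 2 (square) and 3 (triangle), bold names are the 5 genes described and the dotted line is 1 FPKM. Above the line in all libraries lie 5 genes; CEACAM1 is to the right in siPOU2F1, whereas PSG1 and CEACAM21 are to the left.

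The genes whose values followed CEACAM1 most closely over the 6 libraries were ZNF333, a zinc finger gene (Pearson r = 0.994), KRT8, the keratin of simple epithelia (0.993), and ARHGEF1, an activator of the GTPase RhoA (0.993). KRT8 stood at 693, 707 and 1169 FPKM under sicontrol and at 1978, 1925 and 1150 FPKM under siPOU2F1. Like CEACAM1, it was higher in sicontrol replicate 3 than in the other controls and lower in siPOU2F1 replicate 3 than in its partners. KRT8 was not called (log2 fold change 0.98, SE 0.28, limma adjusted p = 0.149), and it was at 0.0159 without siPOU2F1 replicate 3 and at 0.136 to 0.454 with any 1 other library left out. In all, 717 tested genes had r of at least 0.9 with CEACAM1, so such closeness was common, and it includes the difference between the groups.

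CEACAM19 had its closest companions in TMEM200A (r = 0.999), GYG1, a glycogenin that primes glycogen (0.997), and CASKIN2 (0.994). TMEM200A stood at 1.65, 3.74 and 1.42 FPKM under sicontrol and at 0.646, 0.967 and 3.68 FPKM under siPOU2F1. It was high in sicontrol replicate 2 and siPOU2F1 replicate 3, as CEACAM19 was. CEACAM1 and CEACAM19 themselves had r = -0.64 over the 6 libraries.

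**Figure D3:**
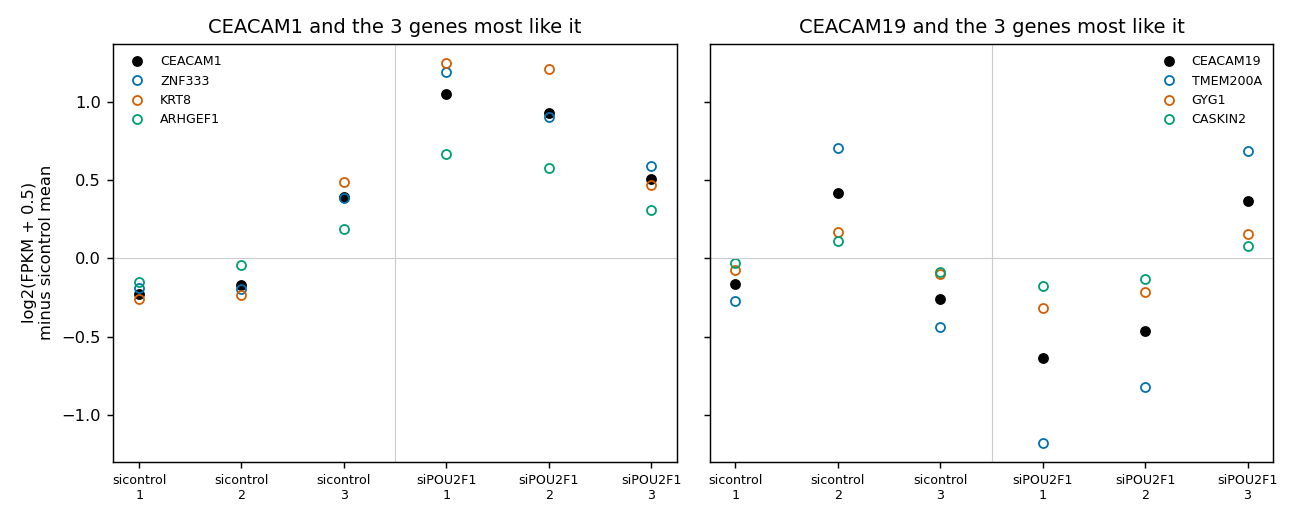
log2(FPKM + 0.5) minus the sicontrol mean (vertical axis) in each of the 6 libraries (horizontal axis) for CEACAM1 (left, filled) and CEACAM19 (right, filled) with the 3 genes most correlated with each (open). CEACAM1 and its companions are highest in siPOU2F1 replicates 1 and 2, at 1.05 and 0.93 for CEACAM1, whereas CEACAM19 and its companions are highest in sicontrol replicate 2 and siPOU2F1 replicate 3.

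Factors known to act on CEACAM promoters or transcripts gave 1 called gene of 12 tested, against 1.24% of all tested genes called in either direction. USF2 is known to bind E-boxes such as the one printed for CEACAM5 and CEACAM6, and its binding was not measured here. It stood at 48.1, 46.1 and 46.5 FPKM under sicontrol and at 25.6, 25.7 and 29.5 FPKM under siPOU2F1. The groups were well separated, and USF2 fell by 0.79 on the log2 scale (SE 0.10, limma adjusted p = 0.0263). Leaving out any library but siPOU2F1 replicate 3 gave it an adjusted p from 0.0967 to 0.184, and leaving out that one gave 0.00518. Its partner USF1 was at 10.2 ± 0.808 and 10.5 ± 1.07 FPKM (SD, n = 3 each; log2 fold change 0.03, adjusted p = 0.897).

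Among the other regulators, IRF1, an interferon-responsive factor known to bind the CEACAM1 promoter, stood at 69.8, 70.6 and 54.4 FPKM under sicontrol and at 27.1, 27.3 and 54.9 FPKM under siPOU2F1. It overlapped through siPOU2F1 replicate 3 and was not called (log2 fold change -0.90, SE 0.28, limma adjusted p = 0.172). ESRP1, an epithelial splicing regulator, was at 42.9 ± 2.43 and 32.3 ± 3.32 FPKM (SD, n = 3 each; log2 fold change -0.41, adjusted p = 0.139). HNRNPM, HNRNPL and HNRNPA1, RNA-binding proteins known to act on CEACAM1 splicing, had log2 fold changes of -0.48, 0.46 and 0.56 and overlapping groups, and none was called (adjusted p = 0.338, 0.486 and 0.384). Of the 12, 3 were lower and 0 higher at an unadjusted p under 0.05, against 9.90% and 8.22% of all tested genes. Without siPOU2F1 replicate 3 limma called 1 higher and 4 lower, against 9.29% and 15.7%. Their median was -0.19, against -0.01 over all tested genes. IRF1, USF1, ESRP1 and the 3 HNRNP genes were named after their values were seen.

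Of 13 tested partners of CEACAM1 signalling limma called 0 (5 were lower at an unadjusted p under 0.05, against 9.90% of all tested genes), and their median log2 fold change was -0.11, with 4 above 0. EGFR, a receptor whose signalling CEACAM1 is known to dampen, stood at 56.4, 52.2 and 47.3 FPKM under sicontrol and at 26.7, 23.7 and 35.4 FPKM under siPOU2F1. The groups did not overlap, and the log2 difference was -0.87 (SE 0.16, limma adjusted p = 0.0622; 0.0058 without siPOU2F1 replicate 3 and 0.135 to 0.290 with any 1 other library left out). YES1, a SRC family kinase, had -0.42 (adjusted p = 0.148; 0.0281 without siPOU2F1 replicate 3 and 0.160 to 0.458 with any 1 other library left out), and CALM3, a calmodulin gene, -0.42 (0.225). The phosphatases that dock on the long tail were at 16.8 ± 2.05 and 16.8 ± 3.28 FPKM for PTPN6 and at 45.4 ± 1.31 and 52.1 ± 2.98 FPKM for PTPN11 (SD, n = 3 each), with log2 fold changes of -0.01 and 0.19 and adjusted p of 0.979 and 0.321; both were named after their values were seen.

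The machinery that makes and attaches GPI anchors was expressed in these libraries, in which the 3 GPI-anchored CEACAM genes were near 0. Any link to those 3 genes was not tested. All 28 listed genes were tested, limma called 0 (5 were higher and 1 lower at an unadjusted p under 0.05, against 8.22% and 9.90% of all tested genes), and the median log2 fold change was 0.08, with 18 above 0. PGAP2, which remodels the lipid of the anchor, had 0.43 (limma adjusted p = 0.168), PIGK, the catalytic subunit of the transamidase that attaches it, -0.58 (0.168), and DPM3, a subunit of dolichol phosphate mannose synthase, 0.72 (0.206). Without siPOU2F1 replicate 3, 2 members were called higher and 2 lower, against 9.29% and 15.7% of all tested genes. Among them were DPM3 (limma adjusted p = 0.0134) and PIGK (0.0184). With any 1 other library left out, DPM3 was at 0.264 to 0.563 and PIGK at 0.286 to 0.487.

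Of 20 genes of differentiated colon epithelium, 4 were tested, limma called 0 (1 was higher at an unadjusted p under 0.05, against 8.22% of all tested genes), and 8 were at 0 in every library. Those tested all had log2 fold changes above 0, with a median of 0.39, against 5738 of 11831 above 0 and a median of -0.01 over all tested genes. HNF4A, a transcription factor of gut epithelium, was at 6.86 ± 0.363 and 8.40 ± 0.109 FPKM (SD, n = 3 each; 0.28, limma adjusted p = 0.254). VIL1, the microvillus protein villin, was at 1.96 ± 0.982 and 4.22 ± 1.91 FPKM (0.93, adjusted p = 0.308), and MUC13, a membrane mucin, had 0.50 (0.548). VIL1 was high in siPOU2F1 replicates 1 and 2 (5.06 and 5.57 FPKM) and not in replicate 3 (2.03 FPKM), and its limma adjusted p was 0.037 without that library and 0.281 to 0.684 with any 1 other library left out. The epithelial markers KRT18 (1373 ± 148 and 2023 ± 208 FPKM, SD, n = 3 each; 0.56, adjusted p = 0.087) and KRT8 lay on the same side as CEACAM1. Of the 7 tested epithelial markers 7 had log2 fold changes above 0, with a median of 0.20, and limma called 0 (2 were higher at an unadjusted p under 0.05, against 8.22% of all tested genes). VIL1 and CDX2 belong to both this list and the colon list, so the counts of the lists are not independent. Without siPOU2F1 replicate 3 limma called 3 of them higher, against 9.29%, with KRT18 at 0.0148; with any 1 other library left out KRT18 was at 0.122 to 0.361. The list summed to 2705 to 3627 FPKM under sicontrol and 3740 to 5166 FPKM under siPOU2F1, a sum carried by KRT8 and KRT18. EPCAM (212.9 ± 7.45 and 215.1 ± 7.38 FPKM, SD, n = 3 each) and CDH1 (21.8 ± 2.61 and 23.6 ± 3.69 FPKM) overlapped between the groups. The part of the keratin values in those of CEACAM1 was not tested.

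Other adhesion molecules with immunoglobulin-like domains gave 19 tested genes of which limma called 0 (2 were higher and 2 lower at an unadjusted p under 0.05, against 8.22% and 9.90% of all tested genes), with a median log2 fold change of -0.02 and 9 above 0. ICAM1, the ligand of leukocyte integrins, stood at 234, 142 and 206 FPKM under sicontrol and at 108, 114 and 86.7 FPKM under siPOU2F1, with no overlap (-0.89, SE 0.20, limma adjusted p = 0.0943). L1CAM, a neural adhesion molecule also found in carcinoma, had 0.36 (adjusted p = 0.155), and CD47, an inhibitory ligand for phagocytes, -0.37 (0.159). The mean of CEACAM1 under siPOU2F1, 25.1 FPKM, was below the 103 FPKM of ICAM1 in the same libraries. Without siPOU2F1 replicate 3, 1 gene was called higher and 3 lower, against 9.29% and 15.7% of all tested genes. ICAM1 (limma adjusted p = 0.0377) and CD47 (0.0382) were among those lower. With any 1 other library left out, ICAM1 was at 0.0991 to 0.332 and CD47 at 0.272 to 0.486.

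**Figure D4:**
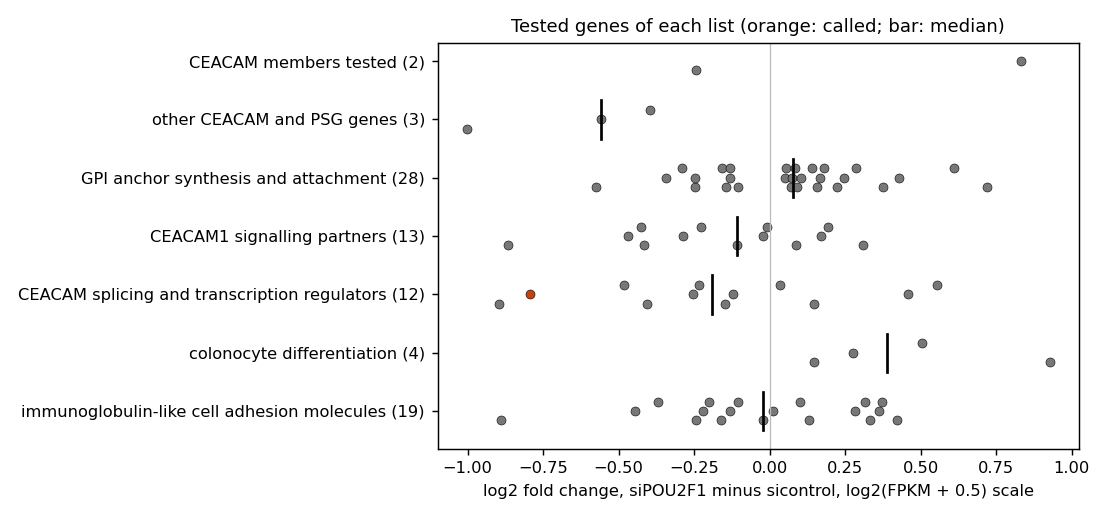
log2 fold change on the log2(FPKM + 0.5) scale (horizontal axis) of each tested gene in the CEACAM set and in 6 lists around it, with the number tested in brackets; the vertical bar is the list's median, orange marks a called gene, and the vertical position of a point within its row has no meaning. CEACAM1 lies at 0.83 and CEACAM19 at -0.24, and the 1 called gene is USF2 at -0.79.

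Of 22 tested genes whose span lay within 250 kb of one of the 5, limma called 0 (3 were higher and 2 lower at an unadjusted p under 0.05, against 8.22% and 9.90% of all tested genes), 13 had log2 fold changes above 0, and the median was 0.13. ARHGEF1, which lies 110953 bases from CEACAM6 and not near CEACAM1, was at 25.2 ± 3.17 and 36.4 ± 4.65 FPKM (SD, n = 3 each; 0.52, limma adjusted p = 0.138; 0.0188 without siPOU2F1 replicate 3 and 0.163 to 0.444 with any 1 other library left out), whereas CEACAM21, 86463 bases from CEACAM7, lay on the other side at -0.56.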

How the data were processed

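PolyA RNA-seq of HCT116 cells gave 3 sicontrol and 3 siPOU2F1 libraries, made from total RNA with a directional library kit per the labels' protocols. Each library has its own table of FPKM values as deposited by the authors; HISAT2 2.0.4, Bowtie2 2.2.5, StringTie 2.1.2 and hg38 are named in the submitters' processing notes without roles. No annotation, filter or strand setting is given in the sources used here, and FPKM carries no counts, so the absolute depth is unknown. Groups came from the sample titles.

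From the 22782 features, 20474 annotated genes were kept and put on the log2(FPKM + 0.5) scale. The 11831 that averaged 1 FPKM or more were compared with limma 3.58.1 (R 4.3.3; trend, group only, Benjamini-Hochberg over all tested genes, called at 0.05); the procedure was tested on simulated data. The 5 genes and all lists were chosen with earlier results of these data known. Named genes are the 5, POU2F1, family genes at 0.1 FPKM or more, called list members (or the 3 with the lowest p), the 3 neighbours with the lowest p (1 is not reported here), marker genes with the highest mean and the 3 genes most like each tested member; others are marked, or describe markers and overlaps. Alternatives were other pseudocounts, filters, scalings, library weights, no trend, a replicate block and leaving out each library. Transcripts and coordinates are from GENCODE 29 (GRCh38, the build of hg38), start regions from RefSeq, and alignments used Biopython 1.88 in Python 3.11.15.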

Additional observations from a re-analysis of the deposited data

How the results depend on the processing

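The difference of CEACAM1 stayed between 0.72 and 1.09 over 15 alternatives and that of CEACAM19 between -0.55 and -0.03 over 14 (a filter at 5 FPKM removed it), each within 1 residual SD of the reported value. Without sicontrol replicate 2, CEACAM19 was at -0.03, and without siPOU2F1 replicate 1 at -0.05. The counts of called genes, 47 higher and 100 lower, depended on the fit. They were 24 and 48 with no filter on low values, 2651 and 3312 with library weights, and 23 higher without the trend. With the replicate block, limma called 0 and 0 (512 higher and 696 lower at an unadjusted p under 0.05), with POU2F1 and USF2 at an adjusted p of 0.297. Leaving out 1 library gave 0 to 1099 higher and 0 to 1855 lower, the highest without siPOU2F1 replicate 3; limma called 0 in both directions without siPOU2F1 replicate 1, without siPOU2F1 replicate 2 and without sicontrol replicate 1 (500 to 596 higher and 676 to 737 lower at an unadjusted p under 0.05). The cause was not tested. Replicate numbers did not pair the libraries: deviations of same-numbered libraries correlated at 0.133, -0.545 and -0.512 across genes, and no sicontrol library correlated best with its own number. Of 300 list counts under the alternatives 30 moved, by over 1.5 times or to or from 0, 12 of them with library weights and 11 without siPOU2F1 replicate 3. Most list counts were 0 in the reported fit. The leukocyte and endothelial lists held no tested gene there, so their counts could move only with no filter on low values. With no counts in the files, depth sets no limit that can be stated for values near 0.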
